A study of Homo sapiens with 2 samples.

Results

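The oxidative phosphorylation genes were taken as every gene of the count matrix whose symbol starts with NDUFA, NDUFB, NDUFC, NDUFS, NDUFV, UQCR, COX4 to COX8 or ATP5, together with the protein-coding genes of the mitochondrial genome, whose symbols start with MT-ND, MT-CO, MT-CYB or MT-ATP. The rule found 108 of 33694 genes, 95 of them nuclear and 13 mitochondrial. The rule uses symbols and no measured value, although members were chosen with earlier results of these data known. By structure the nuclear genes comprised 37 subunit genes of complex I, 9 of complex III, 19 of complex IV and 16 of ATP synthase (complex V), 9 assembly factors named by the same prefixes, and 5 other transcripts: 2 antisense RNAs, 2 read-through transcripts and 1 pseudogene. The mitochondrial genes encode 7 subunits of complex I, 1 of complex III, 3 of complex IV and 2 of ATP synthase.

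The cells derive from C1, an epithelial clone of HMLER, an immortalised and RAS-transformed human mammary epithelial cell line, grown in a mixed medium with insulin, EGF and hydrocortisone. They were edited with a control guide (C1-sgControl) or to knock out either of 2 chromatin regulators, EED (C1-sgEED) and KMT2D (C1-sgKMT2D). PRC2, the Polycomb complex that methylates histone H3 to repress genes, needs EED for its activity, whereas KMT2D methylates H3 at enhancers. The design addresses the gain of mesenchymal features by an epithelial clone after either loss. Cells of the 3 lines carried different antibody hashtags and were read as 1 pooled 3′ gene expression library, so each line is 1 sample, no difference below has a replicate check, and a difference between lines cannot be told apart from a difference between clones. The library title speaks of mixed clones, and the sources used here do not say how many make up a line. Where 3 levels follow each other without a label, they stand for C1-sgControl, then C1-sgEED, then C1-sgKMT2D. Filtering left 1720, 2338 and 2348 cells with 9927122, 10256770 and 13957344 UMIs (unique molecular identifiers, 1 per captured transcript), at a median of 5672.5, 3915 and 5526 UMIs per cell. EED was read at 13.6, 13.4 and 15.3 CPM (UMIs of a gene scaled to a total of 1000000 gene UMIs) and KMT2D at 4.63, 3.02 and 5.02 CPM. The 3′ tags of the targeted genes thus tell little about the edits, whose position the sources used here do not give.

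Oxidative phosphorylation passes electrons from NADH through complex I, and from succinate through complex II, to complex III, cytochrome c and complex IV, where oxygen is reduced. Complexes I, III and IV pump protons across the inner mitochondrial membrane, and ATP synthase uses the gradient to make ATP. Complexes I, III, IV and V are built from subunits of both genomes, whereas all of complex II is nuclear, so the supply of the complexes draws on transcription in the nucleus and in the mitochondrion alike. Nuclear promoters of these genes are known for sites of the factors NRF1, GABP (an ETS factor) and YY1.

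Promoters of 3 members that stand out below are printed here to show which of these sites they hold. The sequences are the 250 bases before the RefSeq start on GRCh38.p14, read 5′ to 3′ on the gene's strand. Capitals mark the ETS letters CCGGAAG or a relaxed NRF1 site, which is GCGC and GCGC around any 2 bases and so includes the strict site, GCGC and GCGC around AT. NDUFAF4 (chr6:96897892-96898141, minus strand), an assembly factor, has the highest ratio to the control in both knockouts. NDUFB10 (chr16:1959288-1959537, plus strand) has the lowest ratio in C1-sgKMT2D, and NDUFS4 (chr5:53560389-53560638, plus strand) the lowest there outside chromosome 16.
NDUFAF4: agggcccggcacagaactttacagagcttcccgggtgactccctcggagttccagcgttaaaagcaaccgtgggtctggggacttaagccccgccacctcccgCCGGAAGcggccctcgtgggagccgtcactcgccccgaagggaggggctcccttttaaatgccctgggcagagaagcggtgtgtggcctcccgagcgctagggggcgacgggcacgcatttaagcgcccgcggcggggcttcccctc
NDUFB10: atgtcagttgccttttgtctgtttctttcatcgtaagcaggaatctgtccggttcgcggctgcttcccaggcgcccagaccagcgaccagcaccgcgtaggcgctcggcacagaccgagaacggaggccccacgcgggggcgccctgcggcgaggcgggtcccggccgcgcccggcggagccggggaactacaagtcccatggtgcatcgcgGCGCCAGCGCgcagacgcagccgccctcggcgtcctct
NDUFS4: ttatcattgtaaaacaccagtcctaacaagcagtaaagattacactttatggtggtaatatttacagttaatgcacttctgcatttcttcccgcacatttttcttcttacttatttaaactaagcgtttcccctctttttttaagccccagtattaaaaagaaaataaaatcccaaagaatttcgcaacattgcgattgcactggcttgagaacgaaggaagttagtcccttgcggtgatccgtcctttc
The NDUFAF4 promoter holds 1 ETS match, NDUFB10 holds 1 relaxed NRF1 match, and NDUFS4 holds neither. Of the 95 nuclear members, 74 had an entry in the RefSeq promoter table. Sites were searched on both strands of the window from 250 bases before to 50 bases after the start. The relaxed NRF1 site was found in 17 of 74 member promoters (23.0%), against 8.78% of all 27305 promoters and 18.4% of the 4670 promoters of genes of at least 20 CPM in any of the 3 lines. The strict site was found in 4 (5.41%), against 1.36% and 2.70%. The ETS letters were found in 18 (24.3%), against 10.7% of all and 22.2% of expressed promoters, and the YY1 letters AAGATGGCG in 7 (9.46%), against 1.85% and 4.78%. A match of letters is a description and not a binding site.

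Most members were read deeply. Of the 108 genes, 90, 92 and 93 reached 20 CPM in the 3 lines. ATP5E, the epsilon subunit of the ATP synthase head, was the highest nuclear member of every line, at 1250.01, 1333 and 1279.9 CPM. These are levels of counted 3′ ends, with 1 tag per transcript, and are not divided by length. The nuclear members summed to 22538, 25693 and 23630.1 CPM, and the 13 mitochondrial genes to 85728, 80168 and 83291 CPM. The mitochondrial genes in the matrix are exactly these 13, so their sum is also the mitochondrial share on which cells were filtered.

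Members that mark other tissues were close to absent. COX4I2, COX6A2 and COX7A1, the isoforms of complex IV subunits known from lung, heart and skeletal muscle, and the read-through transcript NDUFC2-KCTD14 had 0 UMIs in all 3 lines, where 3 UMIs would be 0.302, 0.292 and 0.215 CPM. Of the testis forms, COX7B2 was at 0, 0.0975 and 0.0716 CPM and COX8C at 0, 0.390 and 0.287, and NDUFA4L2, a paralog of NDUFA4 known to be induced in hypoxia, was at 0.201, 0.682 and 0.502 CPM. COX6B2, another testis isoform, was at 2.22, 1.56 and 0.645 CPM. The ubiquitous forms filled these places: COX4I1 was at 986, 939 and 703 CPM, COX6A1 at 499.8, 537 and 492, COX6B1 at 376, 417 and 377, COX7A2 at 594, 617 and 560.5, COX7B at 399.8, 459.9 and 432, and COX8A at 381, 477 and 421. The 3 genes that encode the same mature c subunit of the ATP synthase rotor were all read: ATP5G3 at 682, 898 and 737 CPM, ATP5G2 at 368, 452 and 466, and ATP5G1 at 302, 366 and 343. ATP5G3 led in each line.

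For counting, a member was measured in a comparison if it reached 20 CPM in either group, and it was called higher or lower where log2 of its CPM + 1 differed by at least 0.32. This is the threshold meant wherever no other fold is named. Of the 95 nuclear members, 79 were measured between C1-sgEED and C1-sgControl and 80 between C1-sgKMT2D and C1-sgControl. NDUFA7, NDUFAF7, ATP5L2, the tissue isoforms and NDUFA4L2, and the 5 other transcripts were not, and UQCRHL was measured in the second comparison only. NDUFAF1, NDUFAF6 and UQCRHL entered through the higher group alone. As for any gene that reaches 20 CPM in 1 group only, in the members and in the other lists, a call could then go in that direction alone, and NDUFAF1 and NDUFAF6 are among the higher members of both knockouts. Ratios carry 95% intervals that cover counting error only. Both comparisons share the C1-sgControl cells. In sums over cells, more cells that express a gene and more RNA per cell cannot be told apart.

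Nuclear oxidative phosphorylation transcripts were moderately higher in C1-sgEED than in C1-sgControl, in all 4 complexes. The summed level of the nuclear members was 1.14 times that of the control (1.13 to 1.15). By complex the ratio was 1.16 (1.15 to 1.17) for complex I, 1.11 (1.10 to 1.13) for complex III, 1.12 (1.11 to 1.13) for complex IV and 1.15 (1.14 to 1.16) for ATP synthase. At the threshold, 20 of the 79 measured nuclear members were higher and 0 were lower, against 25.1% higher and 15.5% lower among all 5508 measured genes. The share of members that were higher (25.3%) was therefore the background share, and the share of lower members was under it. Centred on the median of all measured genes, the 20 higher members became 12, the 0 lower stayed 0 and the summed ratio became 1.06. The median log2 ratio was 0.22 for the members and 0.11 for all measured genes, and 72 of the 79 lay above 0. The difference was smaller in deeper cells. Of nuclear UMIs the members took 2.10% in C1-sgControl and 2.71% in C1-sgEED cells of 1000 to 2000 UMIs. In cells of 8000 to 16000 UMIs these shares were 2.53% and 2.72%.

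Within complex I, the 7 nuclear core subunits, which carry the flavin and the iron-sulphur clusters, had a summed ratio of 1.26 (1.23 to 1.30) in C1-sgEED, with 5 of the 7 called higher. NDUFS1, the largest subunit, was at 39.3, 54.8 and 52.7 CPM. NDUFS3 was at 104, 146 and 145 CPM. The 29 measured accessory subunits had a lower summed ratio of 1.14 (1.13 to 1.16), with 4 called higher. Of all measured genes 25.1% were higher, so the accessory share lay under the background and the core share above it. Among the accessory subunits NDUFA6, which lies beside an acyl carrier protein, was at 119 CPM in C1-sgControl and 179 in C1-sgEED. That is 1.503 times as high (1.40 to 1.62). NDUFA2, a thioredoxin-fold subunit, was at 127 and 189 CPM, or 1.48 times as high (1.38 to 1.59). The summed levels of core and accessory subunits of complex I were thus both higher, that of the core by more.

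In the other complexes of C1-sgEED the largest ratio was that of NDUFA4, a subunit of complex IV despite its name, at 463 CPM in C1-sgControl and 714 in C1-sgEED (1.54, 1.49 to 1.60). ATP5C1 was at 198 and 292 CPM (1.47, 1.39 to 1.56), and UQCR10, a small complex III subunit, at 399.7 and 579 CPM (1.45). The c-subunit genes of ATP synthase had a summed ratio of 1.27 (1.24 to 1.30). The members with the lowest ratios were UQCRC1 at 0.882 (0.829 to 0.937), ATP5I at 0.904 (0.851 to 0.961), UQCRH at 0.928, NDUFS5 at 0.932 and COX6C at 0.934. UQCRC1 is a core protein of complex III that faces the matrix, and UQCRH the hinge protein near cytochrome c1. None of these 5 passed the threshold.

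The highest ratio of all nuclear members was that of NDUFAF4 (ENSG00000123545, GRCh38 chromosome 6, 96889313 to 96897881, minus strand), a factor that helps to assemble complex I and is no part of the finished enzyme. It was at 23.8, 46.8 and 39.7 CPM, which is 1.97 (1.68 to 2.31) and 1.67 (1.43 to 1.95) times the control. NDUFAF6, an assembly factor of the same complex, was at 16.9, 25.7 and 24.9 CPM, or 1.52 (1.249 to 1.86) and 1.47 (1.22 to 1.78) times the control. NDUFAF1 was at 18.1, 27.0 and 24.8 CPM. Both lay under 20 CPM in C1-sgControl, so the filter let them in only where a knockout was higher. Not all assembly factors differed by the threshold: NDUFAF2 was at 151, 162 and 150.2 CPM and NDUFAF3 at 157, 158 and 162. ATP5S, a factor linked to ATP synthase, was at 20.4 CPM in C1-sgControl and 28.8 in C1-sgKMT2D (1.408).

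**Figure D1:**
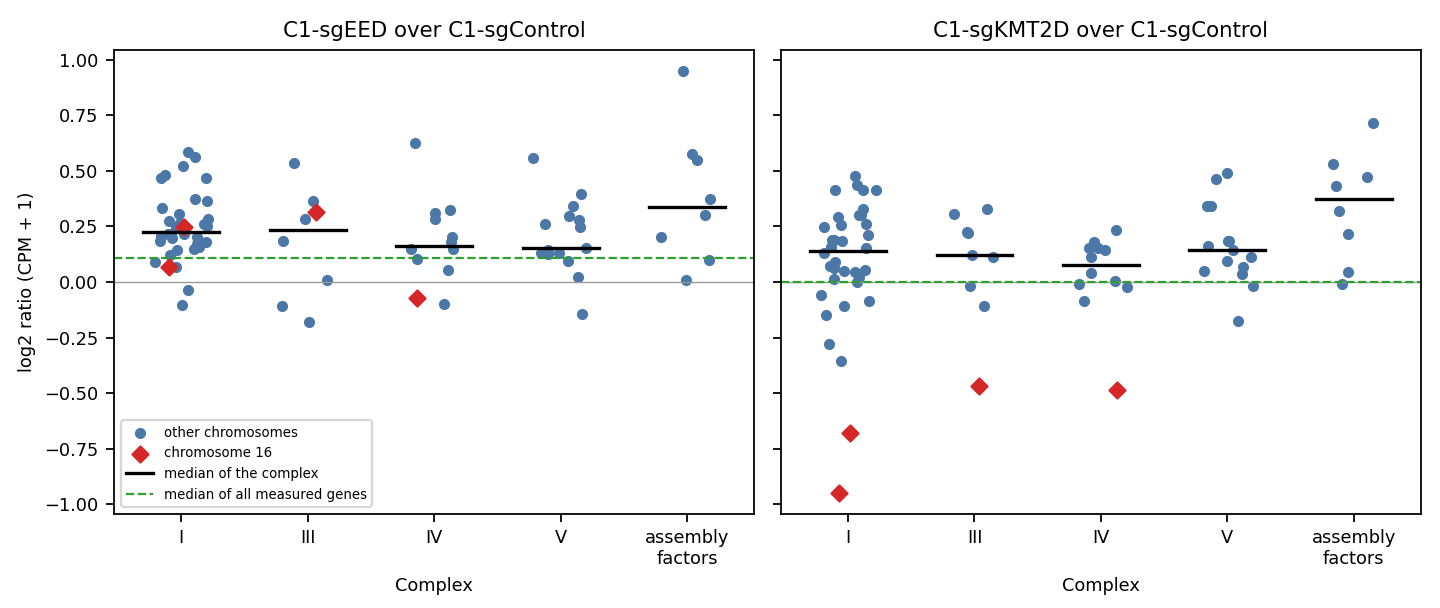
Log2 ratio to C1-sgControl (CPM + 1) of each measured nuclear subunit gene and assembly factor in C1-sgEED (left) and C1-sgKMT2D (right), 1 point per gene, grouped by complex along the x axis with horizontal jitter; black bars are medians of the complex, the dashed green line is the median of all measured genes (0.11 left, 0.00 right) and red diamonds are members on chromosome 16. The 4 diamonds are the lowest points on the right, down to -0.95 for NDUFB10, and lie among the other points on the left.

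C1-sgKMT2D had a smaller and more uneven difference. The nuclear members summed to 1.05 times the control (1.04 to 1.05). The complexes did not share it: the ratio was 1.11 (1.10 to 1.12) for ATP synthase, 1.09 (1.07 to 1.10) for complex III, 1.03 (1.02 to 1.04) for complex I and 0.991 (0.981 to 1.00) for complex IV. The sums of complexes I, III and IV include the 4 measured members on chromosome 16, which had the lowest ratios in this line. Nuclear complex IV genes summed to 6220 CPM in C1-sgControl and 6164 in C1-sgKMT2D, of which COX4I1 made up 986 and 703. For complex I the sums were 6792 and 6974 CPM, of which NDUFB10 made up 295 and 152 and NDUFAB1 287 and 179. For complex III they were 3036 and 3304 CPM, of which UQCRC2 made up 129.7 and 93.4. Ratios of the complexes without these members were not computed. Of the 80 measured nuclear members, 15 were higher and 5 lower, against 19.5% higher and 24.4% lower among all 5343 measured genes. Again the higher share (18.8%) was close to the background and the lower share (6.25%) was under it. The median log2 ratio was 0.14, against 0.00 for all measured genes.

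The core subunits of complex I had nearly the same ratio in C1-sgKMT2D (1.27, 1.23 to 1.30) as in C1-sgEED. Of the 7, 4 were higher, against 19.5% of all measured genes. The accessory subunits together had a ratio whose interval spans 1 (0.994, 0.984 to 1.005). The accessory sum includes NDUFB10 and NDUFAB1, both on chromosome 16, at 0.517 and 0.624 times the control. In the catalytic head of ATP synthase 3 of 5 subunits were higher, against the same 19.5%. ATP5A1 was at 242, 291 and 334 CPM, ATP5B at 367, 465 and 464, and ATP5C1 at 198, 292 and 279. These are the alpha, beta and gamma subunits, which bind nucleotides or turn inside the head. ATP5D and ATP5E, the small subunits at the foot of the stalk, were at 363, 368 and 413 CPM and at 1250.01, 1333 and 1279.9 CPM, under the threshold in both knockouts.

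The lowest ratios in C1-sgKMT2D belonged to the 4 measured members on chromosome 16. NDUFB10 (ENSG00000140990, GRCh38 chromosome 16, 1959508 to 1961975, plus strand), an accessory subunit of the complex I membrane arm, was at 295, 349.8 and 152 CPM, or 0.517 times the control (0.489 to 0.547). NDUFAB1 (ENSG00000004779, chromosome 16, 23581002 to 23596356, minus strand), the mitochondrial acyl carrier protein, was at 287, 301 and 179 CPM (0.624, 0.591 to 0.659). COX4I1 (ENSG00000131143, chromosome 16, 85798633 to 85807044, plus strand), the regulatory subunit of complex IV, was at 986, 939 and 703 CPM (0.713, 0.693 to 0.733). UQCRC2 (ENSG00000140740, chromosome 16, 21952660 to 21983660, plus strand), a matrix-facing core protein of complex III, was at 129.7, 162 and 93.4 CPM (0.720, 0.666 to 0.778). Each of the 4 was lowest in C1-sgKMT2D among the 3 lines.

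Most genes of chromosome 16 were lower in this line: of the 209 that were measured, 79.4% were lower than in C1-sgControl at the threshold, with a median log2 ratio of -0.69, against 0.02 for the 5134 other genes. The 4 members had a median of -0.58 and the 76 members elsewhere 0.15. Leaving chromosome 16 out, 1 nuclear member was lower in C1-sgKMT2D in place of 5. It was NDUFS4, an accessory subunit of the NADH-binding arm, at 163 CPM in C1-sgControl and 127 in C1-sgKMT2D (0.781, 0.730 to 0.836). Copy number was not measured in these data, and its part in the result was not tested.

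The knockouts were also set directly against each other. Between C1-sgKMT2D and C1-sgEED 9 of 80 measured nuclear members were lower and 2 higher, against 27.3% and 10.7% of 5354 genes, and the summed ratio was 0.920 (0.915 to 0.924). Without chromosome 16 the 9 lower members became 5, and centred on the median of all genes the 2 higher became 4. The lowest were NDUFB10 (0.436, 0.413 to 0.460), UQCRC2 (0.578), NDUFAB1 (0.595), NDUFA5 (0.705) and NDUFS6 (0.7096, 0.683 to 0.738). NDUFS6, a zinc-binding subunit of complex I, was at 444, 517 and 367 CPM, so it lay on opposite sides of the control. The higher members were UQCRH at 1.26 (1.22 to 1.29) and UQCRHL at 1.51 (1.23 to 1.87), near-identical copies whose reads cannot be assigned with certainty. UQCRHL was at 13.3 CPM in C1-sgEED cells but reached 20.1 CPM with the KMT2D guide, so it was measured only through the group where it is higher.

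Among the 13 mitochondrial genes, the sum was lower than in the control in both knockouts, at 0.935 (0.932 to 0.938) in C1-sgEED and 0.972 (0.969 to 0.974) in C1-sgKMT2D, and single genes went in opposite directions. MT-CO2, a copper-binding subunit of complex IV, was the highest gene of this genome in each line, at 19256, 16929.8 and 18144 CPM. MT-CO1, the catalytic subunit, was at 12584, 9615 and 12527 CPM, or 0.764 (0.758 to 0.770) times the control in C1-sgEED. MT-CO3 went the other way, at 10293, 12142 and 11919 CPM, 1.18 (1.17 to 1.19) and 1.16 (1.15 to 1.17) times the control. The 3 mitochondrial subunits of 1 complex thus did not differ from the control by the same factor.

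Of the complex I genes, MT-ND5 was at 1961, 1524 and 1312 CPM (0.777 and 0.669 times the control), and MT-ND4 at 9466, 7617 and 7916 CPM (0.805 and 0.836). MT-ND1 and MT-ND2 were lower in C1-sgEED (0.854 and 0.832) and close to the control in C1-sgKMT2D (1.03 and 0.995). MT-ND3 was at 2972, 3156 and 3633 CPM (1.06 and 1.22). These encode membrane-arm subunits that take part in proton pumping and quinone binding. At the threshold C1-sgEED had 1 gene higher, MT-ND6, and 2 lower, MT-CO1 and MT-ND5, and C1-sgKMT2D had 1 lower, MT-ND5, beside the shares of all genes given above.

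MT-CYB, the cytochrome b of complex III, was at 9151, 9088 and 9025 CPM, the most even gene of the genome. MT-ATP6, the proton channel of ATP synthase, was at 12819, 13847 and 11463 CPM (1.08 and 0.894). MT-ATP8 and MT-ND4L, at 76.9 and 167 CPM in C1-sgControl, lie on transcripts shared with MT-ATP6 and MT-ND4, so the level of either alone is uncertain. MT-ND6, on the other strand of the genome, was at 147, 232 and 174 CPM (1.57, 1.47 to 1.68, in C1-sgEED), and at this low level its value is also uncertain where reads of the opposite strand abound. As shares of mitochondrial UMIs, MT-CO1 made up 14.7%, 11.99% and 15.04%, and MT-CO3 12.01%, 15.1% and 14.3%.

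The mitochondrial sums of the lines depend on the filter, which acts on these genes themselves. Of the cells past the gene minimum, 366 of 2086 C1-sgControl cells (17.5%) had over 20% mitochondrial UMIs and were left out, but 56 of 2394 C1-sgEED cells (2.34%) and 63 of 2411 C1-sgKMT2D cells (2.61%). With those cells, mitochondrial UMIs were 10.5%, 8.27% and 8.605% of the total, and the ratios to the control were 0.789 and 0.821. With a limit of 10% the ratios were 0.977 and 1.02, so the direction for C1-sgKMT2D turned with the limit. The C1-sgControl cells over 20% had a median of 1805.5 UMIs and gave 1.51% of their nuclear UMIs to the nuclear members, against 2.48% in C1-sgControl cells of up to 10%. Cell quality was not measured apart from these values, and its part in the result was not tested.

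KRT17 is a keratin of basal epithelial cells and VIM the mesenchymal intermediate filament vimentin, and cells with at least 5 UMIs of both together were called KRT17-rich or VIM-rich where 1 was at least 2 times the other. These are ranges of a ratio, not cell types: 219, 255 and 422 cells lay near the bound, between 1.5 and 2.5 times. In the 3 lines 1469, 961 and 864 cells were KRT17-rich, and 16, 1094 and 943 VIM-rich. The 16 VIM-rich control cells were too few to enter a comparison. All 10 epithelial marker genes were lower in the VIM-rich range of both knockouts, and the measured mesenchymal ones, 11 in C1-sgEED and 10 in C1-sgKMT2D, were all higher, of which KRT17 and VIM set the ranges. The defining markers of immune, endothelial and neural cells summed to at most 21.1, 0.720 and 45.3 CPM in the 5 groups of cells compared.

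The ranges differed most in the mitochondrial genes of C1-sgEED. They summed to 89673 CPM in KRT17-rich and 68215 CPM in VIM-rich C1-sgEED cells, a ratio of 0.761 (0.757 to 0.764). All 13 genes had ratios under 1, 12 of them with intervals under 1, and 7 were called lower and 0 higher, against 23.2% lower and 28.3% higher among 5640 measured genes. MT-ND4 was lowest at 0.614 (0.604 to 0.623), from 9149.5 to 5613 CPM, and MT-CO2 went from 19298 to 13844 CPM (0.717). The highest was MT-ND5, from 1589 to 1473 CPM (0.927, 0.896 to 0.959). By complex the ratio was 0.714 for complex I, 0.845 for complex III, 0.779 for complex IV and 0.720 for ATP synthase.

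Nuclear members went the other way within C1-sgEED, from 24865 CPM in KRT17-rich to 26924 CPM in VIM-rich cells (1.08, 1.07 to 1.09). The ratio of mitochondrial to nuclear UMIs of the set was 3.61 (3.58 to 3.63) in KRT17-rich and 2.53 (2.52 to 2.55) in VIM-rich cells, against 3.85 in KRT17-rich C1-sgControl cells. Over nuclear UMIs alone the nuclear ratio was 1.06. Of the 79 measured nuclear members 11 were higher and 1 lower, both shares under those of all genes, and the median log2 ratio of 0.06 equalled that of all genes. These counts moved with the cells and the scaling: in cells with at most 1 UMI of the G2/M genes, which differ between the ranges, 22 were higher and 6 lower, and centred on the median of all genes 7 were higher and 3 lower. The shares of all genes in cells with at most 1 G2/M UMI are not given, so the 22 and 6 have no background. Within complex I the core subunits were at 1037 and 996 CPM (0.961, 0.922 to 1.002) and the accessory ones at 6590.5 and 7198 (1.09, 1.08 to 1.11).

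**Figure D2:**
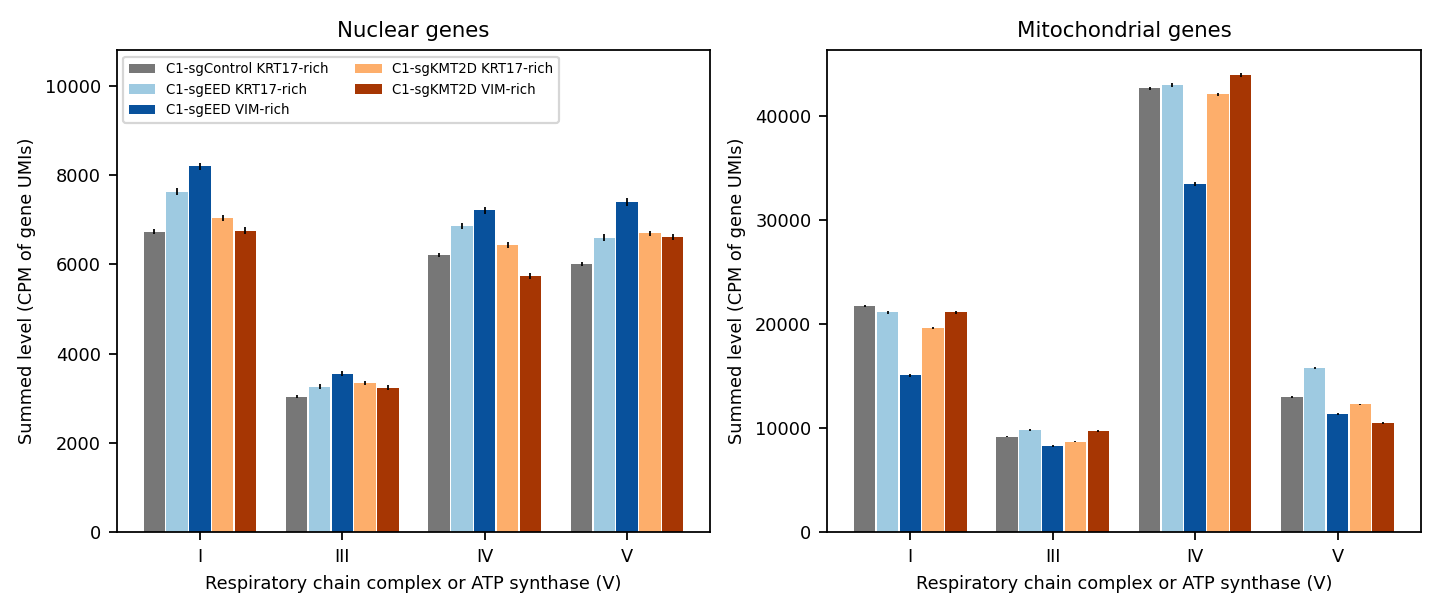
Summed CPM of the nuclear (left) and mitochondrial (right) genes of each complex in KRT17-rich and VIM-rich cells, 1 bar per group; error bars are 95% Poisson intervals and cover counting error only, and the y axes start at 0 and differ in scale. The VIM-rich C1-sgEED bar is the highest of its group for each nuclear complex, and the lowest for mitochondrial complexes I, III and IV.

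In C1-sgKMT2D the same split gave small differences in the opposite directions for both sums, but not for each complex. The mitochondrial ATP synthase genes were lower in VIM-rich cells here too, at 12285 CPM in KRT17-rich and 10496 in VIM-rich cells. The mitochondrial genes summed to 82708.5 CPM in KRT17-rich and 85289.7 CPM in VIM-rich cells (1.03, 1.03 to 1.04), and the nuclear members to 24030.3 and 22865 CPM (0.952, 0.944 to 0.959). MT-CO3 was at 11092 and 13468 CPM (1.21) and MT-ND1 at 4009 and 4808 CPM (1.20), while MT-ATP6 was at 12221 and 10423 CPM (0.853). No mitochondrial gene passed the threshold. Of 80 measured nuclear members 1 was higher and 7 lower, against 17.9% higher and 19.4% lower among 5161 genes. In cells with at most 1 G2/M UMI these counts were 7 and 12, for which no share of all genes is given. The mitochondrial to nuclear ratio was 3.44 in KRT17-rich and 3.73 in VIM-rich cells.

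Some nuclear members followed the range in both knockouts. UQCRC1 (ENSG00000010256, chromosome 3, 48599002 to 48610976, minus strand) was at 221 CPM in KRT17-rich C1-sgControl cells. In C1-sgEED it was at 225 CPM in KRT17-rich and 152 in VIM-rich cells (0.676, 0.612 to 0.747), and in C1-sgKMT2D at 247 and 157 CPM (0.637, 0.581 to 0.697). It was the lowest nuclear member of either comparison. ATP5G2 was at 377 CPM in KRT17-rich control cells, at 394 and 539 CPM in the ranges of C1-sgEED (1.37, 1.29 to 1.46) and at 368 and 622 CPM in those of C1-sgKMT2D (1.69, 1.60 to 1.79). The other c-subunit genes did not share this: ATP5G3 had ratios of 1.09 and 0.914, and ATP5G1 of 1.23 and 0.974. In VIM-rich C1-sgKMT2D cells ATP5G2 lay close to ATP5G3, at 622 against 699 CPM, although ATP5G3 led in each line as a whole.

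Other members followed the range in 1 knockout. NDUFA2 was at 144 CPM in KRT17-rich and 249.02 in VIM-rich C1-sgEED cells (1.73, 1.57 to 1.91), and at 149 and 165 in C1-sgKMT2D (1.10). UQCRQ, a small complex III subunit, was at 397 and 618 CPM in C1-sgEED (1.56, 1.47 to 1.65) and at 375 and 361 in C1-sgKMT2D (0.963). NDUFB6 and NDUFB1, of the complex I membrane arm, were 1.35 times as high in VIM-rich as in KRT17-rich C1-sgEED cells. In C1-sgKMT2D, NDUFA8 (138 and 97.5 CPM, 0.706), NDUFAF5 (33.1 and 23.3 CPM, 0.704), NDUFAF4 (43.5 and 31.5 CPM, 0.725) and NDUFA12 (320.1 and 242 CPM, 0.755) were lower in VIM-rich cells. In C1-sgEED the ratios of these 4 were 1.05, 1.04, 1.02 and 1.21. These differences between knockouts were not tested.

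**Figure D3:**
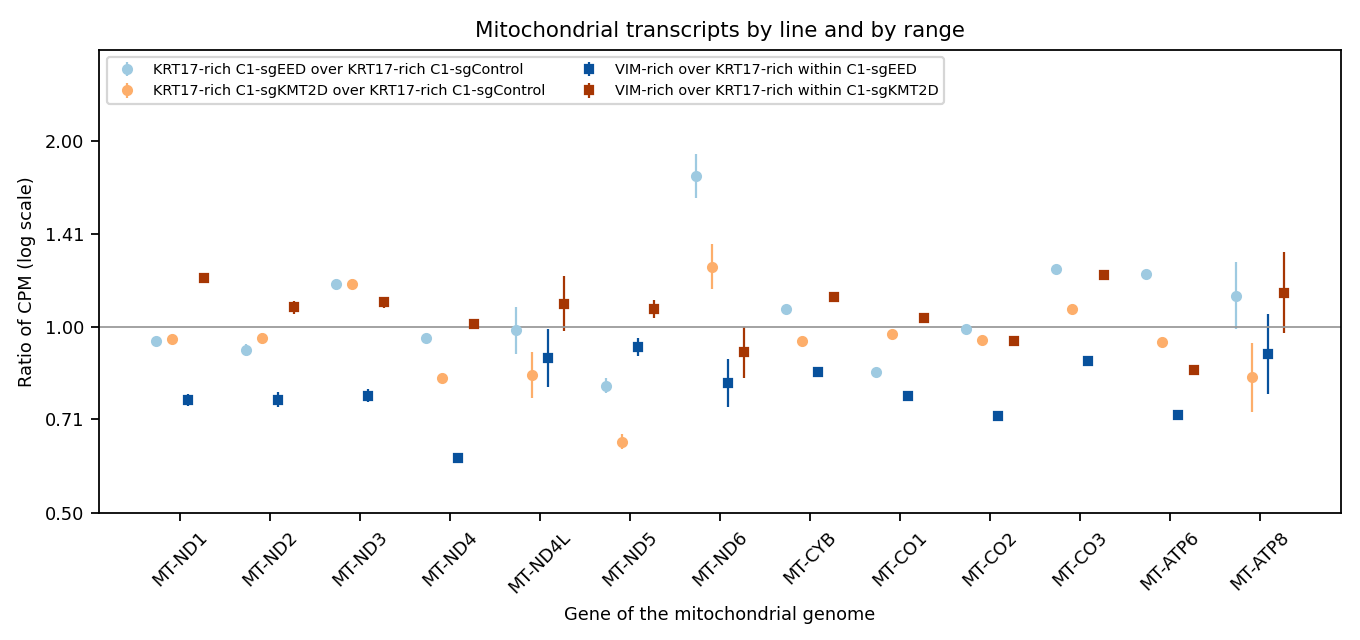
Ratio of CPM for each of the 13 mitochondrial genes, on a log axis, with 95% intervals that cover counting error only; circles compare KRT17-rich cells of a knockout with KRT17-rich C1-sgControl cells and squares compare VIM-rich with KRT17-rich cells of 1 line. The dark blue squares (C1-sgEED) all lie under 1, from 0.614 for MT-ND4 to 0.927 for MT-ND5, and the brown squares (C1-sgKMT2D) lie between 0.853 and 1.21.

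The same range was also compared between lines, although its cells still differed in other markers. In KRT17-rich cells 14 of 14 G2/M genes were higher in C1-sgEED than in C1-sgControl (1764 against 929 CPM in sum) and 13 of 14 in C1-sgKMT2D (1623 CPM). Of the 10 epithelial markers 7 were lower and 1 higher in C1-sgEED, and 6 lower and 3 higher in C1-sgKMT2D, where VIM was at 2374 CPM against 1016 in the control. Their part in the results was not tested. In KRT17-rich cells the nuclear members were 1.11 times (1.10 to 1.12) the control in C1-sgEED, with 22 of 79 higher and 0 lower against 21.2% and 12.1% of 5377 genes. Centred on the median of all genes, the 22 became 11 and the 0 stayed 0. In C1-sgKMT2D they were 1.07 times (1.06 to 1.08) the control, with 16 of 80 higher and 5 lower against 20.3% and 23.6% of 5277 genes. NDUFAF4 was at 22.6 CPM in KRT17-rich control cells, 45.3 in C1-sgEED and 43.5 in C1-sgKMT2D, or 2.003 (1.64 to 2.45) and 1.93 (1.59 to 2.34) times the control. ATP5C1 was at 199 CPM in the control, 287 in C1-sgEED and 291 in C1-sgKMT2D, or 1.44 and 1.46 times the control. NDUFB10 was at 294, 327 and 154 CPM. The mitochondrial genes were 1.04 times the control in C1-sgEED and 0.956 times in C1-sgKMT2D. The first of these turned to 0.916 without the mitochondrial limit and to 0.975 when centred on the median of all genes.

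Between VIM-rich cells of the knockouts, C1-sgKMT2D had 1.2503 times (1.244 to 1.256) the mitochondrial and 0.849 times (0.842 to 0.8565) the nuclear level of C1-sgEED. Of 80 measured nuclear members 27 were lower and 3 higher, against 38.3% lower and 18.4% higher among 5398 genes. Centred on the median of all genes, the 27 lower became 16, the 3 higher 8, the nuclear ratio 0.957 and the median log2 ratio of -0.20 became -0.03. NDUFB10 (0.407, 0.372 to 0.445) and NDUFAB1 (0.554), both on chromosome 16, were lowest. Next came NDUFA4, at 818 CPM in VIM-rich C1-sgEED and 466 in VIM-rich C1-sgKMT2D cells (0.569, 0.539 to 0.601), UQCRQ (0.583) and NDUFA5 (0.611). The higher members included UQCRH (1.33) and UQCRHL (1.46), the latter measured only through C1-sgKMT2D. Of the mitochondrial genes 6 of 13 were higher, led by MT-ND1 at 1.59 and MT-CO1 at 1.54.

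Few members differed by 1.5-fold. Of the measured nuclear members, 2 were higher and 0 lower by that fold in C1-sgEED over C1-sgControl, against 10.2% and 7.88% of all genes. In C1-sgKMT2D over C1-sgControl 1 was higher and 2 lower, against 6.98% and 13.3%, and in C1-sgKMT2D over C1-sgEED 0 higher and 3 lower, against 3.06% and 11.6%. NDUFAF4 was among the higher ones and NDUFB10 among the lower ones. Between VIM-rich and KRT17-rich cells 2 were higher and 0 lower in C1-sgEED, against 15.1% and 13.6%, and 1 higher and 1 lower in C1-sgKMT2D, against 8.04% and 9.11%. Between KRT17-rich cells, C1-sgEED had 1 higher and 0 lower than C1-sgControl, against 6.97% and 4.67%, and C1-sgKMT2D 1 higher and 1 lower, against 6.46% and 12.2%. Between VIM-rich cells of the knockouts 0 were higher and 11 lower in C1-sgKMT2D, against 9% and 21.1%.

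Cell by cell the quartile ranges of the groups overlapped in part. The median mitochondrial share of a cell was 8.32% in KRT17-rich C1-sgControl cells, with quartiles of 6.98% and 10.2%. It was 8.86% (7.63% to 10.2%) in KRT17-rich and 6.704% (5.64% to 8.01%) in VIM-rich C1-sgEED cells, and 8.13% (6.72% to 9.75%) and 8.498% (7.19% to 9.83%) in those of C1-sgKMT2D. The nuclear members took a median of 2.43% of a cell's nuclear UMIs in KRT17-rich control cells, 2.78% and 2.89% in the ranges of C1-sgEED, and 2.60% and 2.45% in those of C1-sgKMT2D. The VIM-rich C1-sgEED cells were lowest in the first measure and highest in the second.

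**Figure D4:**
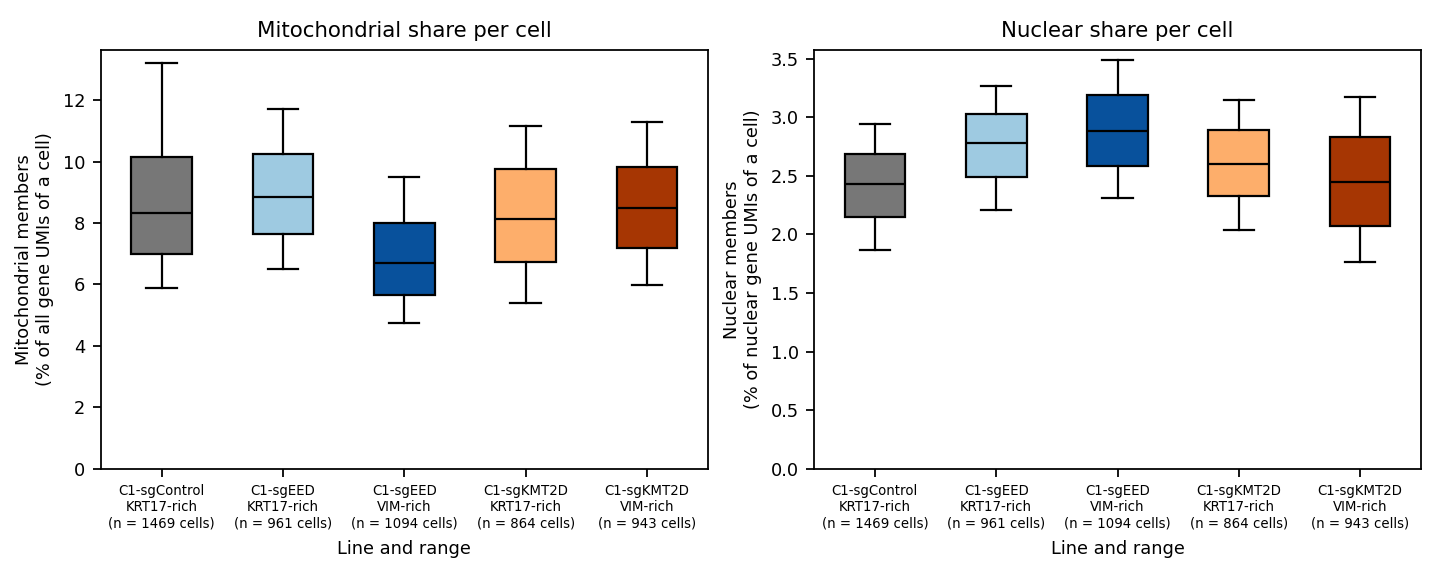
Distribution over cells of the mitochondrial share of all gene UMIs (left) and of the nuclear members' share of nuclear gene UMIs (right), in percent; boxes span the quartiles with the median as a line and whiskers reach the 10th and 90th percentiles. The box of VIM-rich C1-sgEED cells (median 6.704%) lies under the others on the left and highest on the right (2.89%), and all boxes overlap in part.

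VIM-rich cells were shallower than KRT17-rich ones, with medians of 3397 against 4403 UMIs in C1-sgEED and 4360.0 against 6830.0 in C1-sgKMT2D. Within C1-sgEED the mitochondrial share was lower in VIM-rich cells in each range of depth, by least in the shallowest cells. Depth was not matched within these ranges, and its part in the result was not tested. Among cells of 2000 to 4000 UMIs the mitochondrial share was 9.36% in KRT17-rich and 6.91% in VIM-rich C1-sgEED cells, among those of 4000 to 8000 UMIs 8.95% and 6.58%, and among those of 8000 to 16000 UMIs 8.47% and 6.60%. In the shallowest cells, of 1000 to 2000 UMIs, the shares were 9.37% and 8.99%, from 34 and 90 cells. In C1-sgKMT2D the shares of KRT17-rich and VIM-rich cells were 8.10% and 9.75% at 1000 to 2000 UMIs, from 30 and 39 cells. They were 8.25% and 8.56% at 2000 to 4000 UMIs and 8.24% and 8.66% at 4000 to 8000 UMIs. At 8000 to 16000 UMIs the direction turned, with 8.29% and 8.01% from 293 and 83 cells. In KRT17-rich C1-sgControl cells the nuclear members' share moved with depth, from 2.08% at 1000 to 2000 UMIs to 2.52% at 8000 to 16000. In KRT17-rich C1-sgEED cells it went from 2.79% to 2.67% over the same depths, so these 2 groups differed less in deeper cells. In KRT17-rich C1-sgKMT2D cells it went from 2.23% to 2.63%.

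**Figure D5:**
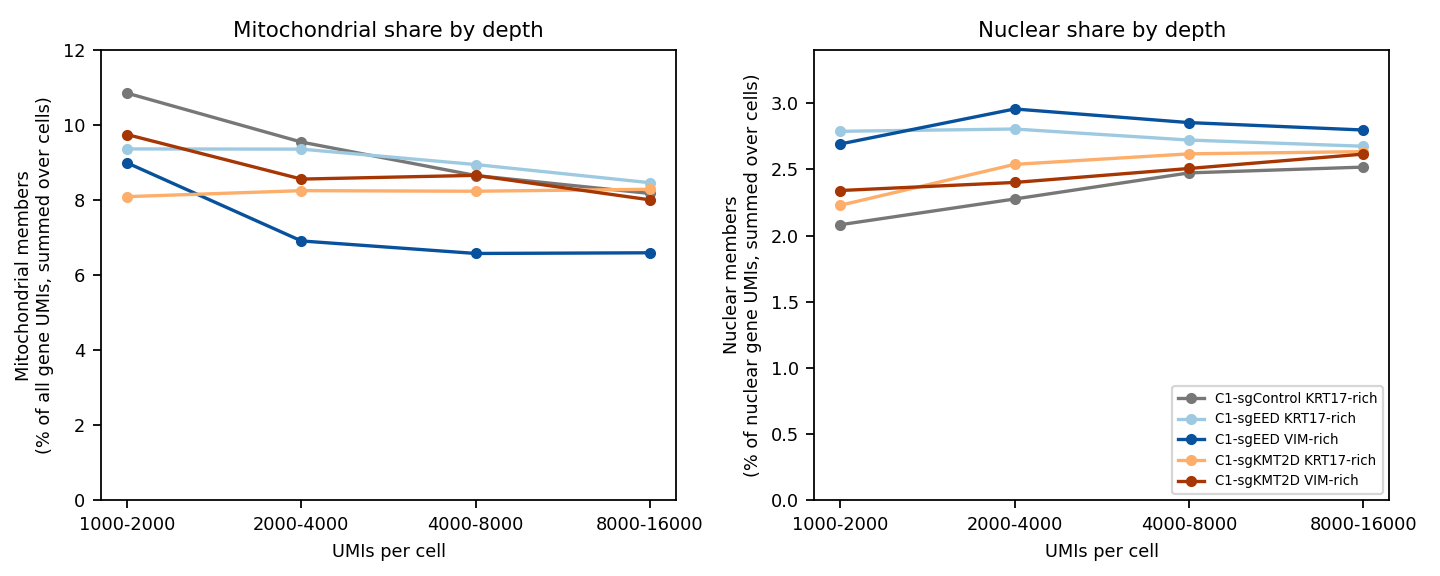
Mitochondrial share of all gene UMIs (left) and nuclear members' share of nuclear gene UMIs (right), in percent, summed over the cells of 4 ranges of UMIs per cell, 1 line per group. The dark blue line (VIM-rich C1-sgEED) runs from 8.99% to 6.60% on the left, under the light blue line of KRT17-rich C1-sgEED cells at each depth, and the grey line (KRT17-rich C1-sgControl) goes from 2.08% to 2.52% on the right.

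Cell cycle genes differed with the groups. The 14 G2/M genes summed to 1155, 2340.1 and 2039.7 CPM. Of them 14 and 13 were higher than in C1-sgControl, against 25.1% and 19.5% of all measured genes. In KRT17-rich and VIM-rich C1-sgEED cells the G2/M genes summed to 1764 and 3035 CPM. In cells with at most 1 UMI of these genes, the nuclear members were 1.14 times the control in C1-sgEED and 1.04 times in C1-sgKMT2D. Between VIM-rich and KRT17-rich C1-sgEED cells of this kind the mitochondrial ratio moved from 0.761 to 0.817 and the nuclear ratio from 1.08 to 1.14. Ribosomal protein genes took 22.1%, 21.1% and 25.1% of gene UMIs, and their part in the results was not tested.

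Other genes of mitochondrial energy metabolism were counted by the same rule. Of complex II and the cytochrome c genes, 1 of 6 was higher in C1-sgEED and 2 of 6 in C1-sgKMT2D. CYCS, cytochrome c itself, was at 309.96 CPM in C1-sgControl and 408 in C1-sgEED (1.32), and CYC1, the cytochrome c1 of complex III, at 209 CPM in C1-sgControl and 288 in C1-sgKMT2D (1.38). SDHC, a membrane anchor of complex II, had the lowest ratio in both, at 0.958 and 0.828. Of the mitochondrial ribosome genes, which serve translation of the 13 mitochondrial messages, 34 of 71 were higher and 1 lower in C1-sgEED, and 21 higher and 4 lower in C1-sgKMT2D. Among all measured genes 25.1% and 19.5% were higher, and 15.5% and 24.4% lower. MRPL46 had the highest ratio in C1-sgEED, at 29.2 CPM in the control and 49.5 (1.70), MRPS17 the lowest there, at 21.1 and 13.5 CPM (0.639), and MRPL28 the lowest in C1-sgKMT2D, at 103 CPM in the control and 53.9 (0.525).

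For transcription and processing of mitochondrial RNA, 3 of 7 genes were higher in C1-sgEED and 2 of 6 in C1-sgKMT2D, against 25.1% and 19.5% of all measured genes. TFAM, which packages mitochondrial DNA and starts its transcription, was at 47.5, 79.4 and 70.1 CPM, or 1.67 (1.49 to 1.87) and 1.48 (1.32 to 1.65) times the control. Within C1-sgEED, TFAM was at 66.6 CPM in KRT17-rich and 95.2 in VIM-rich cells, the direction opposite to that of the mitochondrial transcripts. Assembly factors beyond the members were higher in 6 of 25 and 9 of 25 cases, against the same 25.1% and 19.5% of all measured genes. The first of these counts was close to its background share. COX20 led in C1-sgEED (1.45) and SCO1, a copper chaperone of complex IV, in C1-sgKMT2D (1.58).

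Of the TCA cycle genes 5 of 14 were higher and 0 lower in C1-sgEED, and 4 of 13 higher and 0 lower in C1-sgKMT2D. The shares of all measured genes were 25.1% and 19.5% higher, and 15.5% and 24.4% lower. Fumarase (FH) led in C1-sgEED, at 58.7 CPM in the control and 92.3 (1.57, 1.42 to 1.75). Of the glycolysis genes 0 of 16 were higher in either knockout. C1-sgEED had 4 lower ones and C1-sgKMT2D had 6, against 15.5% and 24.4% lower among all measured genes. The aldolase ALDOA, on chromosome 16, was at 1547 CPM in C1-sgControl and 749 in C1-sgKMT2D (0.484), and hexokinase HK1 at 70.7 in C1-sgControl and 50.6 in C1-sgEED (0.716). Of the regulators of mitochondrial biogenesis, 4 were measured in the first knockout and 5 in the second. MYC was at 272, 197 and 341 CPM, and within C1-sgEED at 280.0 CPM in KRT17-rich and 107 in VIM-rich cells (0.380, 0.341 to 0.424). GABPB1, a subunit of GABP, was at 24.96 and 38.6 CPM in the same ranges (1.55).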

How the data were processed

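The deposited matrix holds UMI counts per gene and barcode for 1 pooled library, with 4 hashtags counted beside the genes. Per the submitters' processing notes the authors made the counts with Cell Ranger 3.0.2 on GRCh38. The annotation version and the counting of introns are not stated in these sources, and a 3′ count does not see isoforms that share an end. Kept were barcodes of at least 500 genes and at most 20% mitochondrial UMIs, 9193 of 10336. For each hashtag a mixture of 2 Gaussians was fitted to log10 counts, and the count at which both were equally likely set the cut for a positive barcode. The 827 barcodes with several hashtags were removed as doublets, and 26 with none were left out. Doublets within a hashtag were left in.

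For each line, and each range within it, gene UMIs were added up and divided by their total to give CPM. As each line is 1 sample, no p-value or standard error was computed. Sums have exact Poisson intervals and ratios exact conditional binomial intervals, at 95%. UMIs of 1 cell are not independent, so these intervals are too narrow for a line. Simulated data with 200 genes changed by 1.5-fold in C1-sgEED over C1-sgControl (5508 genes) gave 95.6% coverage of the intervals, with 99% of changed and 0.471% of unchanged genes called. With 1 sample per line, the simulation could not cover variation between samples of a line. Named were all mitochondrial members, the 5 highest and 5 lowest nuclear members of each comparison, tissue isoforms, members on chromosome 16, and the highest and lowest of each other list. Further members were named after their values were seen, as examples of a complex or because they stood close to a named one. Members and lists were chosen with earlier results of these data known. Chromosomes came from GENCODE 29, and promoters from RefSeq through gene identifiers and current symbols. Python 3.11.15, numpy 2.4.6, scipy 1.17.1, pandas 2.3.3 and scikit-learn 1.9.0 were used. Near-identical copies (UQCRH and UQCRHL, ATP5E and ATP5EP2, ATP5L and ATP5L2) and overlapping transcripts can share reads, so their single levels are uncertain.

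Alternatives covered the mitochondrial limit, the scaling, the mean over cells, depth, hashtag margin, the bound of the ranges, the CPM minimum, the fold and chromosome 16. Cells with at most 1 G2/M UMI and cells of 4000 to 8000 UMIs were added after seeing the data. The single values of 1 member are not reported here, and it is kept in the counts and sums.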

Additional observations from a re-analysis of the deposited data

Results flagged for a closer look

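Within C1-sgEED and within C1-sgKMT2D, VIM-rich and KRT17-rich cells differed in opposite directions in several sums. Giving C1-sgEED before C1-sgKMT2D, the ratio for nuclear members was 1.08 and 0.952, and for mitochondrial members 0.761 and 1.03. By complex it was 1.07 and 0.961 for nuclear and 0.714 and 1.08 for mitochondrial complex I genes. It was 1.09 and 0.970 for nuclear and 0.845 and 1.12 for mitochondrial complex III genes, and 1.05 and 0.894 for nuclear and 0.779 and 1.04 for mitochondrial complex IV genes. Mitochondrial ATP synthase genes did not share this. From KRT17-rich to VIM-rich cells they went from 15803 to 11382 CPM in C1-sgEED and from 12285 to 10496 in C1-sgKMT2D. Nuclear ATP synthase genes went from 6598 to 7397 CPM in C1-sgEED and from 6694 to 6616 in C1-sgKMT2D. With 1 sample per line, the difference between the lines was not tested.

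Cells with hashtag 2, which the labels tie to no line, held signal outside the comparisons. Their 1934 cells had 24309.7 CPM of nuclear members, and NDUFC2 was at 768 CPM where the 3 labelled lines ranged from 232 to 282. NDUFV2 was at 306 CPM against 144 to 181.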

How the results depend on the processing

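Ratios of sums of these genes have narrow counting intervals, so small shifts leave them: 60 alternative values stayed within the interval, 83 left it in the same direction and 3 changed direction. "Centred" means centred on the median of all measured genes. For C1-sgEED over C1-sgControl, the nuclear ratio of 1.140 became 1.181 without a mitochondrial limit, 1.133 with a 10% limit, 1.133 over nuclear UMIs, 1.058 centred, 1.173 as a mean over cells and 1.124 at 4000 to 8000 UMIs. Its mitochondrial counterpart of 0.935 became 0.789 without a mitochondrial limit, 0.977 with a 10% limit, 0.868 centred, 0.909 as a mean over cells and 0.977 with at most 1 G2/M UMI. For C1-sgKMT2D over C1-sgControl, the nuclear ratio of 1.048 became 1.086 without a mitochondrial limit, 1.034 with a 10% limit, 1.057 as a mean over cells and 1.038 with at most 1 G2/M UMI. Among mitochondrial genes, the ratio of 0.972 became 0.821 without a mitochondrial limit, 1.020 with a 10% limit, 0.948 as a mean over cells, 0.995 with at most 1 G2/M UMI and 0.982 at 4000 to 8000 UMIs. For C1-sgKMT2D over C1-sgEED, the nuclear ratio of 0.920 became 0.913 with a 10% limit, 0.990 centred, 0.901 as a mean over cells, 0.907 with at most 1 G2/M UMI and 0.929 at 4000 to 8000 UMIs. Its mitochondrial counterpart of 1.039 became 1.043 with a 10% limit, 1.118 centred, 1.043 as a mean over cells, 1.042 from 2000 UMIs, 1.018 with at most 1 G2/M UMI and 1.050 at 4000 to 8000 UMIs. For VIM-rich over KRT17-rich within C1-sgEED, the nuclear ratio of 1.083 became 1.058 over nuclear UMIs, 1.038 centred and 1.141 with at most 1 G2/M UMI. Among mitochondrial genes, the ratio of 0.761 became 0.826 with a 10% limit, 0.729 centred, 0.777 as a mean over cells, 0.751 from 2000 UMIs, 0.780 with ranges at 1 time, 0.748 with ranges at 4 times, 0.817 with at most 1 G2/M UMI and 0.735 at 4000 to 8000 UMIs. For VIM-rich over KRT17-rich within C1-sgKMT2D, the nuclear ratio of 0.952 became 0.941 as a mean over cells. Its mitochondrial counterpart of 1.031 became 1.015 without a mitochondrial limit, 1.042 with a 10% limit, 1.037 centred, 1.042 as a mean over cells, 1.016 with ranges at 4 times, 1.041 with at most 1 G2/M UMI and 1.051 at 4000 to 8000 UMIs. For KRT17-rich C1-sgEED over KRT17-rich C1-sgControl, the nuclear ratio of 1.107 became 1.135 without a mitochondrial limit, 1.042 centred, 1.138 as a mean over cells, 1.096 with at most 1 G2/M UMI and 1.097 at 4000 to 8000 UMIs. Among mitochondrial genes, the ratio of 1.036 became 0.916 without a mitochondrial limit, 1.061 with a 10% limit, 0.975 centred, 1.014 as a mean over cells and 1.042 with at most 1 G2/M UMI. For KRT17-rich C1-sgKMT2D over KRT17-rich C1-sgControl, the nuclear ratio of 1.070 became 1.098 without a mitochondrial limit, 1.054 with a 10% limit, 1.086 as a mean over cells and 1.061 with at most 1 G2/M UMI. Its mitochondrial counterpart of 0.956 became 0.848 without a mitochondrial limit, 0.996 with a 10% limit, 0.951 centred, 0.927 as a mean over cells, 0.979 with at most 1 G2/M UMI and 0.952 at 4000 to 8000 UMIs. For VIM-rich C1-sgKMT2D over VIM-rich C1-sgEED, the nuclear ratio of 0.849 became 0.865 over nuclear UMIs, 0.957 centred, 0.835 as a mean over cells, 0.864 with ranges at 1 time, 0.841 with ranges at 4 times, 0.810 with at most 1 G2/M UMI and 0.859 at 4000 to 8000 UMIs. Among mitochondrial genes, the ratio of 1.2503 became 1.239 without a mitochondrial limit, 1.184 with a 10% limit, 1.4097 centred, 1.226 as a mean over cells, 1.264 from 2000 UMIs, 1.218 with ranges at 1 time, 1.259 with ranges at 4 times, 1.196 with at most 1 G2/M UMI and 1.316 at 4000 to 8000 UMIs. The reversals were the mitochondrial ratio of C1-sgKMT2D over C1-sgControl with a 10% limit and that of KRT17-rich C1-sgEED over C1-sgControl without a limit or centred; the cause was not tested.

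The cells with at most 1 G2/M UMI and those of 4000 to 8000 UMIs were chosen after seeing the data. Shares of all genes in these cells are not given, so their counts have no background. Counts of nuclear members at the threshold moved as follows. In C1-sgEED over C1-sgControl the 20 higher became 12 centred and 2 at 1.5-fold. In C1-sgKMT2D over C1-sgControl the 15 higher became 1 at 1.5-fold, and the 5 lower became 2 at 1.5-fold and 1 without chromosome 16. Within C1-sgEED the 11 higher became 7 centred, 22 with at most 1 G2/M UMI and 2 at 1.5-fold, and the 1 lower 6 with at most 1 G2/M UMI. Within C1-sgKMT2D the 1 higher became 7 and the 7 lower 12 with at most 1 G2/M UMI. In KRT17-rich cells the 22 higher of C1-sgEED became 11 centred and 1 at 1.5-fold, and the 16 higher of C1-sgKMT2D 1 at 1.5-fold. For C1-sgKMT2D over C1-sgEED the 9 lower became 5 without chromosome 16 and 3 at 1.5-fold, and between VIM-rich cells the 27 lower became 16 centred and 11 at 1.5-fold, and the 3 higher 8 centred. Of the smaller counts, the 2 higher in C1-sgKMT2D over C1-sgEED ranged from 0 at 1.5-fold to 4 centred, the 1 lower within C1-sgEED from 0 at 1.5-fold to 6, and the 1 higher within C1-sgKMT2D from 1 to 7, where the 7 lower became 1 at 1.5-fold. The 5 lower of KRT17-rich C1-sgKMT2D cells became 3 at 4000 to 8000 UMIs and 1 at 1.5-fold or without chromosome 16, the 0 lower of KRT17-rich C1-sgEED cells 1 with a minimum of 5 CPM, and the 3 higher between VIM-rich cells 0 at 1.5-fold. Centred, the median log2 ratio of 0.22 in C1-sgEED over C1-sgControl became 0.11, that of -0.09 in C1-sgKMT2D over C1-sgEED 0.01 and that of -0.20 between VIM-rich cells -0.03. In all, 44 alternative counts and medians moved and 274 did not. No paired analysis was possible because each line is 1 group of cells in a single pooled library, and the labels give no replicate numbers. Members under 20 CPM are limited by depth, and members with 0 UMIs could lie anywhere up to the level of 3 UMIs.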

Other observations

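Further values of the hashtag 2 cells belong to no line and are given as they stand. The mitochondrial members summed to 70374 CPM, and MT-CYB was at 6944 CPM where the labelled lines had 9025 to 9151. The range split gave 357 KRT17-rich and 1047 VIM-rich cells, with mitochondrial sums of 67795 and 74922 CPM. ATP5L, a membrane subunit of ATP synthase, was at 284 CPM against 531 to 587 in the lines, and the assembly factor NDUFAF5 at 17.3 against 24.9 to 32.6.

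These members were not alone along their chromosomes. Of the 23 measured genes within 5 Mb of NDUFC2 on chromosome 11, 22 were above the highest of the 3 lines, and of the 14 near NDUFV2 on chromosome 18, 13 were. Of the 32 near ATP5L on chromosome 11, 30 were under the lowest line, and of the 14 near NDUFAF5 on chromosome 20, 13 were. Over all 5705 measured genes, 14.9% were above the highest and 40.2% under the lowest line.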
